A study of Bos taurus and Bubalus bubalis with 9 samples.

Results

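The expression of 9 glycolytic enzyme genes was described, namely ALDOA, TPI1, PGK1, PGAM2, ENO3, PKM, PGM1, LDHA and LDHB. It was measured as mRNA and circular RNA in skeletal muscle of buffalo and as circular RNA in muscle and adipose tissue of cattle. The genes were picked by name, with earlier results of these data known, and all 9 were found among the 6170 genes that could be named in the deposited buffalo mRNA table. The 9 libraries come from 3 groups with 3 libraries each, namely longissimus dorsi muscle of Xinyang buffalo (buffalo muscle), the same muscle of Nanyang cattle (cattle muscle) and back subcutaneous fat of Nanyang cattle (cattle adipose). By the labels, the age at slaughter was 30 months for all animals, and fattening had begun at 18 months. Castration took place at 6 months and weaning at 3 months. The buffalo samples are labelled as low and the cattle samples as high in intramuscular fat. The labels and the study's methods name 3 buffalo and 3 cattle, so the muscle and adipose libraries of cattle share animals. Which libraries come from the same animal is not stated, and the comparison of these tissues treated them as independent. mRNA values are given here for buffalo muscle only, because cattle mRNA values and buffalo adipose libraries were not analysed here. No comparison of mRNA levels between tissues or species was therefore made, and the tissue of the cattle libraries was not checked against mRNA markers.

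Glycolysis splits glucose into pyruvate in the cytosol and yields ATP without oxygen, which makes it a main energy source of fast contracting muscle fibres. Muscle feeds the pathway largely from its own glycogen, and lactate dehydrogenase turns the pyruvate into lactate while restoring the NAD+ that the pathway consumes. Several steps are served by tissue isozymes, of which ALDOA, PGAM2 and ENO3 are the forms typical of skeletal muscle. Lactate dehydrogenase is a tetramer of the subunits encoded by LDHA, which prevails in fast muscle, and LDHB, which prevails in heart and slow muscle.

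The deposited mRNA table lists 19917 transcripts, and 12 of them carry a name of these 9 genes. The values are FPKM, a fragment count scaled for transcript length and library depth, so levels of different transcripts can be set side by side. The number of reads behind a single transcript is unknown. Summed FPKM was between 991636 and 1186999 per library, and the 10 highest transcripts held between 43.0% and 46.5% of it. A list of skeletal muscle markers summed to between 103440 and 124243 FPKM per library over 9 named genes, whereas 6 named adipocyte genes summed to between 10.9 and 22.0 FPKM. MYH1, a fast myosin heavy chain, is listed at 0 in each of the 3 libraries. ALB and FGB, which mark liver, had mean FPKM of 0.524 and 0.229. The fibroblast genes COL1A1, COL1A2 and PDGFRA summed to 422, 374 and 263 FPKM in buffalo muscle 1 to 3, and 2 of these 3 genes had a mean of at least 100. The endothelial genes PECAM1 and VWF summed to between 47.5 and 55.1 FPKM, and PTPRC, a leukocyte gene, had a mean of 2.74. The part of these cells in the levels of the 9 genes was not tested.

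All 9 genes were among the abundant mRNAs of buffalo muscle, but their levels spanned a wide range. Each had a mean FPKM of at least 100, a level reached by 4.07% of all listed transcripts. By mean log2(FPKM + 1), 5 of the 9 ranked within the 50 highest transcripts and 8 within the 150 highest. Summed, the 9 genes held 2.14%, 2.28% and 2.79% of all FPKM in buffalo muscle 1 to 3, or 2.41% ± 0.341 (SD, n = 3). All 9 are on the study's lists of mRNAs that differed between the species, so they do not stand for the pathway at large. In a tissue sample, more cells of a type and more RNA per cell cannot be told apart.

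**Figure D1:**
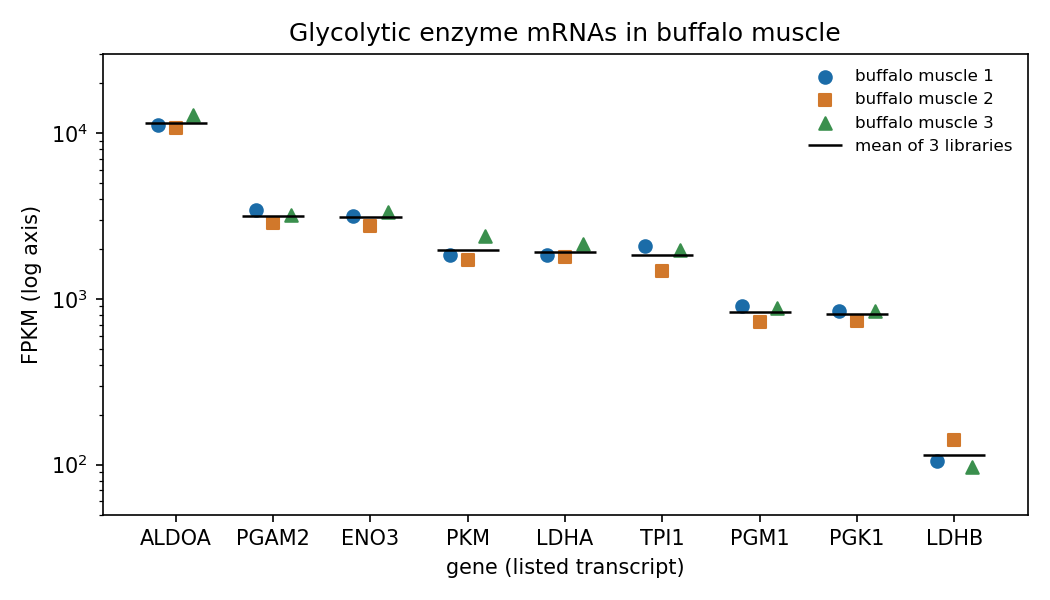
FPKM (log axis) of the listed transcript of each gene in the 3 buffalo muscle libraries, with horizontal lines for the means. ALDOA lies above 10000 in each library, LDHB lies at 140.0 or below in each, and the other genes lie between 721 and 3429.7.

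ALDOA, the aldolase that splits fructose bisphosphate into a pair of triose phosphates, was the highest of the 9. The transcript ENSBTAT00000017177 had 11212, 10672 and 12803 FPKM in buffalo muscle 1 to 3. Its mean of 11562 ± 1108 (SD, n = 3) placed it at rank 12 of all transcripts, and it alone made up 44.1%, 46.7% and 46.2% of the summed FPKM of the 9 genes. Its lowest library was still above the highest library of any other member. TPI1 (ENSBTAT00000026358), the isomerase that interconverts the triose phosphates made by aldolase, had 2096, 1475 and 1971 FPKM. On the log2(FPKM + 1) scale ALDOA exceeded TPI1 by 2.66 ± 0.22 (SD, n = 3), with a ratio of FPKM of 5.35, 7.23 and 6.50 in the 3 libraries. TPI1 was therefore lower than ALDOA in each animal, and buffalo muscle 2 had the least of both.

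In the pay-off phase of the pathway, PGK1 (ENSBTAT00000001187), the kinase that makes its first ATP, had 846, 736 and 848 FPKM. PGAM2 (ENSBTAT00000019336), the muscle phosphoglycerate mutase that follows it, had 3429.7, 2856 and 3199 FPKM. ENO3 (ENSBTAT00000007278), the muscle enolase, had 3177.5, 2766 and 3360.3 FPKM. PGAM2 and ENO3 could not be ordered, since their ranges overlapped and their log2 difference was 0.03 ± 0.09 (SD, n = 3). PKM (ENSBTAT00000047412), the pyruvate kinase that makes the last ATP, had 1834, 1709.7 and 2394 FPKM. PKM was below ENO3 in each library, by 0.66 ± 0.15 on the log2 scale (SD, n = 3). PGK1 was the lowest of these genes, and its highest library stayed below the lowest library of the other 3.

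PGM1, phosphoglucomutase, joins glycogen breakdown to glycolysis by turning glucose phosphate from its first-position form into the form the pathway uses. Its listed transcript ENSBTAT00000043425 had 905, 721 and 882 FPKM. The levels of PGM1 and PGK1 overlapped, with a log2 difference of 0.04 ± 0.06 (SD, n = 3). Another PGM1 transcript, ENSBTAT00000025308, had 184, 147 and 172 FPKM. It contributed 16.9%, 16.9% and 16.3% of the FPKM of both, so the split between these transcripts was nearly the same in all 3 animals. The other transcripts named for LDHA and PGK1 were close to 0. ENSBTAT00000011447 of LDHA had 0.563 FPKM in buffalo muscle 1 and 3.3e-05 and 4.22e-05 in buffalo muscle 2 and 3, and ENSBTAT00000039206 of PGK1 was below 0.001 throughout.

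LDHA and LDHB, the subunits of lactate dehydrogenase, stood far apart. LDHA (ENSBTAT00000056276) had 1844, 1783 and 2141 FPKM, whereas LDHB (ENSBTAT00000026118) had 105, 140.0 and 97.0. The ratio of LDHA to LDHB was 17.5, 12.7 and 22.1 in the 3 libraries, or 17.4 ± 4.67 (SD, n = 3), and LDHB made up 5.41%, 7.28% and 4.33% of both. On the log2(FPKM + 1) scale the difference was 4.08 ± 0.40 (SD, n = 3). LDHA was higher than LDHB in 3 of 3 libraries, and LDHB at rank 689 was the only member outside the 150 highest transcripts. The libraries of this single group were described without a test.

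**Figure D2:**
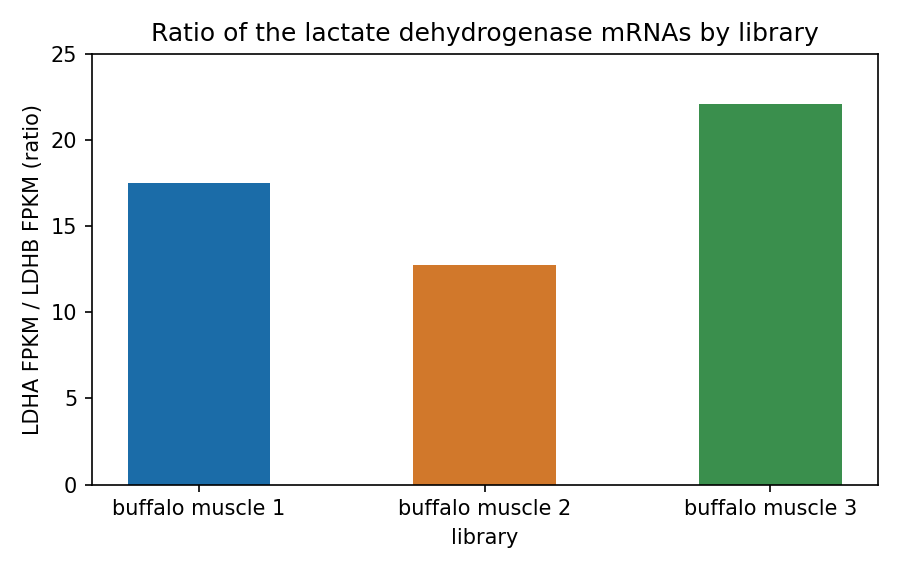
Ratio of LDHA FPKM to LDHB FPKM in each buffalo muscle library. The bars stand at 17.5, 12.7 and 22.1, so buffalo muscle 2 has the lowest ratio.

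Ordered by mean, the genes fell into ALDOA, then PGAM2 and ENO3, then PKM, LDHA and TPI1, then PGM1 and PGK1, and last LDHB. Within each of these sets the ranges of neighbouring genes overlapped, and between them they did not. The step from ALDOA to PGAM2 was 1.87 ± 0.15, that from TPI1 to PGM1 was 1.13 ± 0.09 and that from PGK1 to LDHB was 2.83 ± 0.39 on the log2 scale (SD, n = 3 each). ALDOA came first and LDHB last in each library, and only the order inside the sets changed. The ranks of the means were 12 for ALDOA, 29 for PGAM2, 30 for ENO3, 45 for PKM, 47 for LDHA, 51 for TPI1, 108 for PGM1 and 112 for PGK1.

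**Figure D3:**
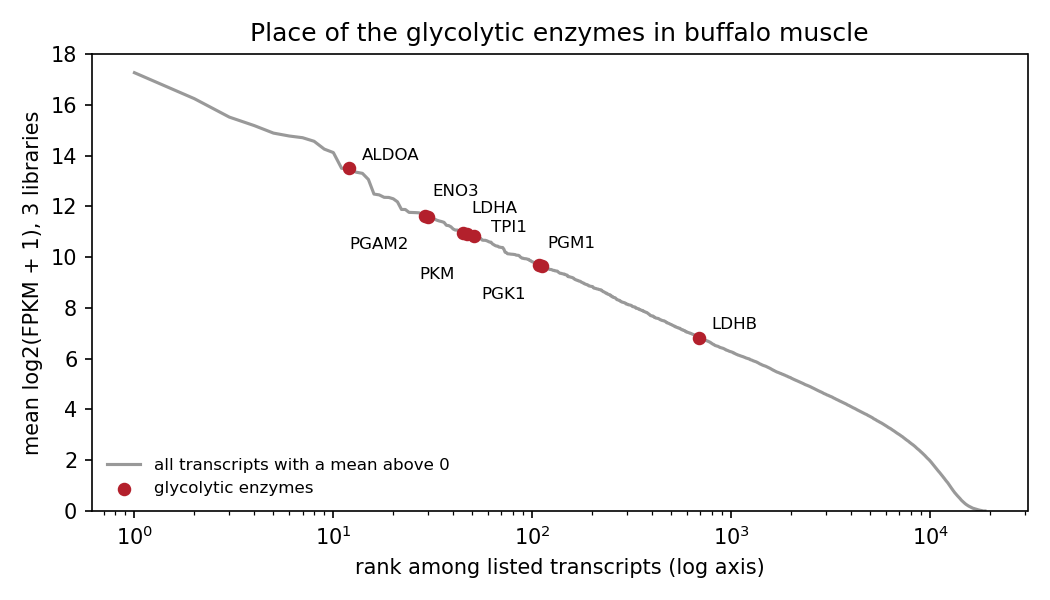
Mean log2(FPKM + 1) of all listed transcripts against their rank (log axis), with the 9 genes as red points. The points run from rank 12 for ALDOA to rank 112 for PGK1, and LDHB stands apart at rank 689.

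The spread between the animals was small beside these steps. The SD of log2(FPKM + 1) had a median of 0.14 over the 9 genes, beside 0.16 over all transcripts down to rank 689. It was smallest for PGK1 (0.12) and largest for LDHB (0.28), TPI1 (0.27) and PKM (0.26). For 8 of the 9 genes buffalo muscle 2 had the lowest FPKM, whereas for LDHB it had the highest. Among the 810 transcripts with a mean FPKM of at least 100, buffalo muscle 2 was lowest in 33.7%. This pattern depended on the scale. After division by the FPKM sum of each library, buffalo muscle 2 was lowest for 3 genes and buffalo muscle 1 for 6, buffalo muscle 3 was highest for 8, and LDHB alone remained highest in buffalo muscle 2. Among slow fibre markers, MYL2 was also highest in buffalo muscle 2 (5913, 6204 and 4776 FPKM), but MYH7 was highest in buffalo muscle 1 (4373, 3105 and 3015). Both orders were the same for the share of the FPKM sum. TNNI1 was highest in buffalo muscle 1 by FPKM (1177, 1001 and 1016) and in buffalo muscle 3 by share (0.0992%, 0.10004% and 0.102%). Their part in the LDHB values was not tested.

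The rest of the pathway was read from a list of named enzymes. Of 17 further glycolytic genes, 6 could be named, and 2 of these had a mean of at least 100 FPKM. PFKM, the muscle phosphofructokinase that commits sugar to glycolysis, had 747, 695 and 667 FPKM, and GPI, the isomerase before it, had 625, 493 and 586. HK1, a hexokinase, had 26.0, 19.04 and 15.7 FPKM, and HK2, the hexokinase typical of insulin-responsive muscle, had 11.3, 5.30 and 5.65. The transcript named GAPDH (ENSBTAT00000024692) had 25.8, 17.7 and 32.7 FPKM, below all 9 members. GAPDH has near-identical copies in the genome that could take up its reads, so its level is uncertain. The same caution holds for LDHA, PGK1 and TPI1, since how the authors' counting shared reads between copies was not measured here.

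Genes on both sides of the pathway were at levels near those of the members in part. PYGM, the glycogen phosphorylase of muscle, had 2805, 2497 and 2637 FPKM, and 5 of the 8 named genes of glycogen and glucose phosphate metabolism had a mean of at least 100 FPKM. Of the 5 named gluconeogenic genes, FBP2, the muscle fructose bisphosphatase, was the only one at that level, with 484, 637 and 657 FPKM. Among 7 named genes that act on pyruvate or lactate, PDK4, a kinase that inhibits pyruvate dehydrogenase, had 1642, 1105 and 515 FPKM, the widest spread of the 7 genes' highest transcripts. The lactate carriers SLC16A1 (70.0, 70.7 and 60.25) and SLC16A3 (36.4, 34.3 and 47.5) were lower than LDHB in each library.

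Circular RNAs join a splice donor to an upstream acceptor, and each is counted by reads over that back-splice junction. The deposited circRNA tables give RPM, junction reads scaled for library depth, and whole reads could be recovered from its steps for 100% of the values above 0 (tolerance 0.01 reads). Junction reads per library numbered 4472 to 6122 for buffalo muscle. They numbered 15440 to 27141 for cattle muscle and 12042 to 21053 for cattle adipose. The 9 genes gave few circRNA reads in all 3 groups. They had 2 of 15890 junction reads in buffalo muscle (0.0126%, exact Clopper-Pearson 95% interval 0.00152 to 0.0455). The share in cattle muscle was 10 of 64482 (0.0155%, 0.00744 to 0.0285), and that in cattle adipose was 7 of 47255 (0.0148%, 0.00596 to 0.0305). Most of these 7 reads were in cattle adipose 1. The intervals cover counting error only, since reads are not independent molecules, and they overlap between all groups. The buffalo and cattle tables were normalized separately, so no test was made across them.

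**Figure D4:**
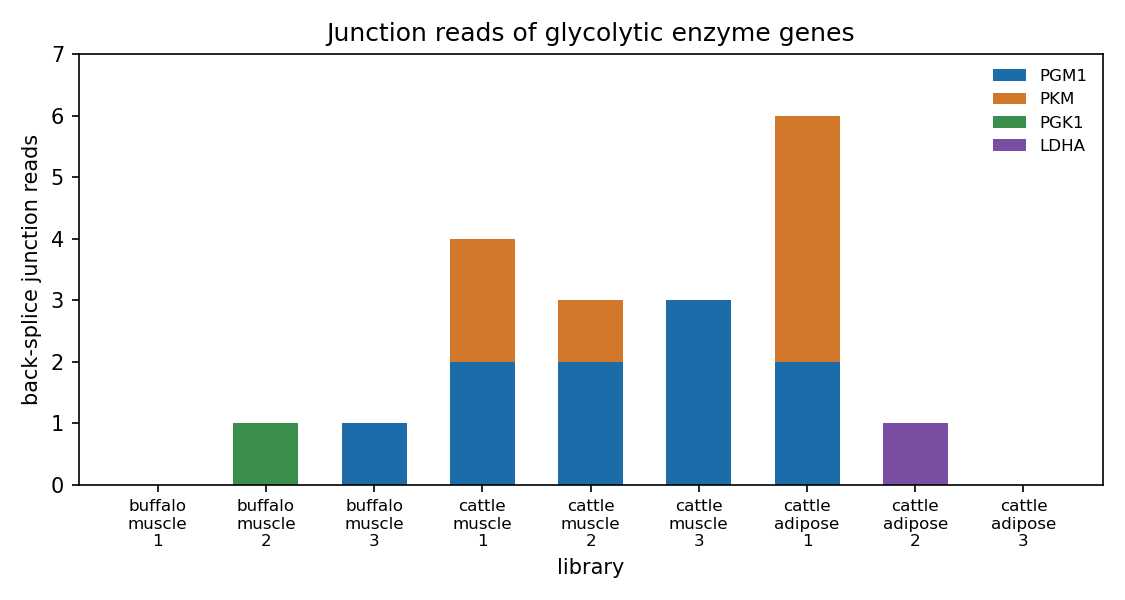
Back-splice junction reads of PGM1, PKM, PGK1 and LDHA, stacked, in each of the 9 libraries. Counts run from 0 in buffalo muscle 1 and cattle adipose 3 to 6 in cattle adipose 1, and no other member gene has a read.

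For ALDOA, TPI1, PGAM2, ENO3 and LDHB neither table lists a junction. A count of 0 allows up to 3 reads, which corresponds to between 0.0456 and 0.04999 RPM in a buffalo muscle library and between 0.0710 and 0.0840 RPM in a cattle library. In buffalo muscle, 2 of the 9 genes had a junction read. Of all transcripts down to rank 689, 18.3% were annotated to a circRNA with a read in buffalo muscle. Among transcripts at ranks 2001 to 5000 this share was 24.9%, and over all listed transcripts it was 13.3%. The members' count is of genes, not transcripts, and rests on 1 read each for PGK1 and PGM1. Neither a likeness nor a difference is therefore read from it.

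PGM1 was the member with the most circRNAs, 6 of the 12 listed in both tables, all exonic and on the minus strand of chromosome 3 (coordinates of UMD3.1). In cattle, the junction from 82275109 to 82277142 had 1 read in cattle muscle 1 and 3 reads in cattle muscle 3, and the junction from 82279961 to 82282326 had 2 reads in cattle muscle 2 and 2 in cattle adipose 1. The junction from 82270947 to 82280086 had 1 read in cattle muscle 1. In buffalo muscle, the junction from 82253466 to 82282326 had 1 read, in library 3, and those from 82275109 to 82281818 and to 82282326 were at 0 in all 3 libraries. No junction was shared by both tables, but the end at 82275109 occurs in 3 of the 6 and the end at 82282326 in 3, each in both tables, and 1 junction of the buffalo table has both ends.

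Summed over junctions, PGM1 had 2, 2 and 3 reads in the cattle muscle libraries 1 to 3, whereas the adipose libraries had 2, 0 and 0. Reads were thus present in 3 of 3 muscle and 1 of 3 adipose libraries, with overlapping values. Pooled over libraries and scaled to their size, this was 7 reads against 2, a ratio of 3.41 with an exact 95% counting interval from 0.65 to 33.7. PGM1 was the only member that passed the filter on low counts (at least 2 reads in at least 3 of the 6 cattle libraries) when junctions were summed per host gene, and no single member circRNA passed it. All 3 muscle libraries but only 1 of 3 adipose libraries had 2 reads, so PGM1 passed through the group where its reads were higher. The fits of PGM1 below are therefore descriptive and show neither a difference between the tissues nor its absence. In limma on log2(RPM + 1), over 1837 host genes, the difference for PGM1 (muscle minus adipose) was 0.06 ± 0.05 (SE), with an adjusted p = 0.706. PGM1 had at most 0.084 RPM in a cattle library, so the added 1 shrinks this difference, which does not measure a fold change. With 0.1 added instead, the difference was 0.48. Over all host genes tested, 3.81% were called at an adjusted p of 0.05, and among the 1917 single circRNAs it was 3.23%. The edgeR and DESeq2 tests on recovered reads gave PGM1 log2 differences of 1.53 and 1.63 with adjusted p = 0.673 and 0.858. No difference was called for PGM1, which does not show that it was unchanged. Whether depth, the number of libraries or the method limited the call was not tested.

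The other member circRNAs rested on single libraries. PKM, on the minus strand of chromosome 10, had 3 junctions in the cattle table and none in buffalo. The exonic junction from 18975533 to 18980209 had 4 reads in cattle adipose 1, the exonic junction from 18973283 to 18980963 had 2 reads in cattle muscle 1, and an intronic junction from 18970409 to 18973282 had 1 read in cattle muscle 2. For PKM this made 3 reads in muscle and 4 in adipose tissue, a ratio of 0.731 with an exact counting interval from 0.107 to 4.32. PGK1 had a single junction, on chromosome X from 79285283 to 79285462, a span of 180 bases, with 1 read in buffalo muscle 2. LDHA, on chromosome 29, had 1 read in cattle adipose 2 for the junction from 26547347 to 26549415, and the junction from 26547347 to 26548356 of the buffalo table was at 0 in the 3 muscle libraries.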

How the data were processed

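RNA of 3 groups with 3 libraries each was sequenced. Per the labels, the authors used a TruSeq RNA kit, whose usual protocol selects polyadenylated RNA, which circRNAs lack, and does not keep strand. Buffalo and cattle reads alike were trimmed (Trim Galore) and mapped by STAR to UMD3.1, a cattle assembly. Cufflinks 2.2.1 built the transcripts, and Cuffdiff gave FPKM for each replicate. Alignment of buffalo reads to the cattle genome may lower values of diverged transcripts. The mRNA table deposited by the authors holds linear FPKM and the circRNA tables deposited by the authors hold RPM per junction. The circRNA caller is not given in the sources used here. The 9 columns of buffalo adipose tissue match none of the samples used here and were left out, nor were the lncRNA table and the values of the paper's tables. Transcript names came from the circRNA tables and from the names in the study's lists of differing transcripts, without placeholder names of open reading frames, which named 6774 of 19917 transcripts, and a gene is described by the transcript in those lists.

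FPKM was analysed as log2(FPKM + 1). Whole reads were recovered by dividing RPM by the smallest value of a column. Library totals so derived were between 35712276 and 65777231. Cattle muscle and adipose circRNAs were compared with limma 3.58.1 on log2(RPM + 1) with Benjamini-Hochberg adjustment over all circRNAs or host genes tested. Alternatives were a pseudocount of 0.1, other filters, a replicate block, libraries left out, another scaling, edgeR 4.0.16 and DESeq2 1.42.0. On simulated data limma on log2(RPM + 1) recovered few of the changed circRNAs and host genes, and fewer than edgeR. The simulation used changes of a single size and a fixed spread, so it does not give the power for these data. A gene that was not called is not shown to be unchanged. p-values measure the spread between libraries. The genes named were the 9 members and up to 6 of each context list. The members and lists were chosen with earlier results of these data known.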

Additional observations from a re-analysis of the deposited data

How the results depend on the processing

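LDHA minus LDHB stayed between 3.89 and 4.28 with each library left out. Of 81 values of single genes and their ranks under other settings, 72 moved by at most 1 SD and 9 moved further, all on division by the FPKM sum without the 10 highest transcripts. That scaling raised the median level of the 9 genes from 10.90 to 11.67, and their share of FPKM from 2.41% to 4.32%, since it shrinks the denominator. With each library left out the median level was between 10.79 and 10.99, the share between 2.21% and 2.54%, and the median rank, 47 over all libraries, between 44 and 55 (55 without buffalo muscle 3).

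The count of circRNAs called between cattle muscle and adipose tissue, 62 with limma, was 123 with the pseudocount of 0.1, 36 without a filter, 96 after rescaling to junction reads, 164 with edgeR and 107 with DESeq2. It ranged from 24 to 70 with each library left out, and was 36 without cattle muscle 3 and 26, 41 and 24 without cattle adipose 1, 2 and 3. For host genes, 70 calls became 126, 35, 133, 156 and 117 in the same order, and between 17 and 64 with a library left out. They were 39 and 26 without cattle muscle 2 and 3, and 22, 45 and 17 without cattle adipose 1, 2 and 3. The split of circRNA calls, 59 higher in muscle and 3 higher in adipose tissue, became 63 and 33 after rescaling, 106 and 17 with the pseudocount of 0.1, 71 and 15 with the replicate block, 137 and 27 with edgeR and 89 and 18 with DESeq2. For host genes, 54 and 16 became 69 and 64 after rescaling, 57 and 7 without cattle muscle 1 and 24 and 2 without cattle muscle 3. The cause was not tested. Deviations of same-numbered muscle and adipose libraries had r = 0.24, 0.17 and -0.02 (1 to 3), other pairs -0.22 to 0.04. This did not settle pairing, which the main fit ignored. With the replicate block, 86 circRNAs and 69 host genes were called. PGM1 was positive and not called in any setting in which it was tested. Every setting reuses the same few reads, and PGM1 passed the filter through muscle, so the shared sign is not separate evidence. The PGM1 log2 difference in limma was 0.05 to 0.09 with a library left out and 0.48 with the pseudocount of 0.1. It was 0.039 after rescaling to junction reads. Adjusted p in limma was 0.756 there and 0.712 with the replicate block. The low read counts limit what can be said of the circRNAs of these genes, none of which exceeded 4 reads in a library.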
